A study of Mus musculus with 35 samples.

Results

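The question addressed here was which transcripts differ across the whole expressed genome in kidneys that lack Flcn, beyond the increased transcripts that the study lists. Kidney messenger RNA of mice on a C57BL/6 background at postnatal day 2, a stage that the study names precystic, was compared between 5 libraries labelled Flcn KO and 5 labelled control Flcn, which are 10 of the 35 libraries of the series. The labels give the genotypes as Flcn-KO and control_Flcn. The study describes the knockout as Flcn flox/flox; Ksp-cre+, in which the Cdh16 promoter drives the Cre recombinase, and names its sites of expression as collecting ducts, distal tubules and the thick ascending limb of the loop of Henle. It gives its control mice as Flcn flox/flox, without naming Cre. An effect of Cre itself therefore cannot be told apart from that of Flcn loss. Whole kidneys were measured, so fewer cells of a type and less RNA per cell cannot be told apart. Mice of both sexes were used in the study, and the labels number the libraries as biological replicates. For 1 comparison, the 4 libraries labelled Flcn/Tfeb DKO (Ksp-cre+ with floxed alleles of both genes) and the 3 controls of that cross were added.

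Folliculin, the product of Flcn, is a GTPase-activating protein for the small GTPases RagC and RagD and works at the surface of the lysosome, the compartment where cells digest proteins, lipids and sugars. Through these GTPases it lets the kinase mTORC1 phosphorylate the transcription factors TFEB and TFE3, which stay in the cytoplasm when phosphorylated and drive genes of lysosomes and of energy metabolism when they reach the nucleus. Loss of FLCN in people causes Birt-Hogg-Dubé syndrome, in which kidney cysts and tumours arise, and kidneys of mice without Flcn become cystic.

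The 10 libraries held 1689378 to 3564751 counts on genes, read at the 3′ ends of transcripts. Levels are given as counts scaled to library size with TMM factors (CPM), as mean ± SD over 5 libraries unless a library is named, and differences as log2 fold changes of Flcn KO over control Flcn with their standard error (SE). Control libraries 4 and 5 stood apart from the rest. Mitochondrial genes took 4.88% and 4.93% of their counts, against 9.98% to 11.1% in control libraries 1 to 3 and 7.33% to 11.1% in the Flcn KO libraries. Reads on no gene made up 10.96% and 9.06% in these controls, against 16.5% to 18.03% in the other controls and 12.9% to 18.1% in the Flcn KO libraries. Counts of called genes, list medians and the values of many single genes are therefore given both with and without control libraries 4 and 5. The labelled tissue had its markers in every library, the summed proximal tubule list for example at 6430 to 9450 CPM, while all 6 genes of an adrenal cortex list were too low to test.

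Flcn itself (chr11:59791408-59810016, minus strand, mm10) stood at 16.6, 10.4, 13.8, 19.1 and 16.6 CPM in Flcn KO libraries 1 to 5 and at 12.1, 16.6, 12.4, 16.5 and 12.7 CPM in control libraries 1 to 5. The groups overlapped, and the log2 fold change was 0.09 (SE 0.20, adjusted p = 0.93). Reads at the 3′ end do not show whether another part of the gene was removed, so this value does not check the labels. The log2 fold change was -0.16 (SE 0.22) for Tfeb, -0.04 (SE 0.15) for Tfe3 and 0.05 (SE 0.12) for Cdh16, the cadherin whose promoter drives the Cre, and none of the 3 was called. Without controls 4 and 5 the log2 fold change was -0.24 for Tfeb, -0.20 for Tfe3 and -0.05 for Cdh16, again without a call.

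Of 11932 genes tested, 62 were called at an adjusted p under 0.05 (0.52% of the genes tested), of which 54 were higher (0.453%) and 8 lower (0.067%) in the Flcn KO kidneys. Among the called genes, the log2 fold changes of those higher ran from 0.53 to 5.10 (median 1.04), and those of the lower ones from -3.06 to -0.56 (median -1.13). By a second reading with no model, all 5 Flcn KO libraries lay above all 5 controls for 199 genes (1.67% of those tested) and below all 5 for 85 (0.712%). Of these, 104 of the 199 and 60 of the 85 are outside the transcripts that the study lists as increased or decreased. All 54 genes called higher and all 8 called lower are in those lists, so the genes outside them are ones that were not called. The study drew its lists from these libraries, which are therefore not independent evidence. At an unadjusted p under 0.05 there were 627 genes higher (5.25% of those tested) and 455 lower (3.81%). The median log2 fold change over all genes tested was -0.0074, and 48.5% of genes were above 0. Without control libraries 4 and 5, 51 genes were called, and 37 of the 62 were among them (32 of the 54 higher and 5 of the 8 lower), all 62 keeping their sign.

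**Figure D1:**
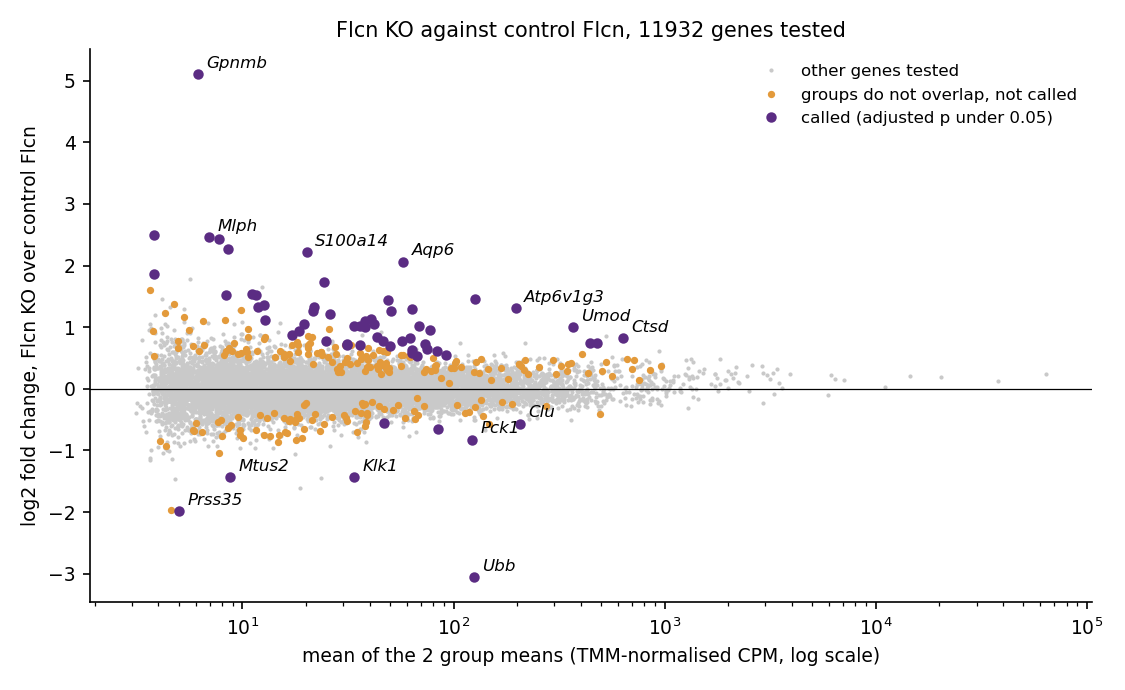
Each point is 1 of the 11932 genes tested, with the mean CPM of the 2 groups on a log axis and the log2 fold change of Flcn KO over control Flcn. Called genes are purple (54 above and 8 below 0), and genes whose groups did not overlap but were not called are orange; Gpnmb lies highest at 5.10 and Ubb lowest at -3.06.

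The 8 genes that fell were Klk1, Prss35, Pck1, Ubb, Mtus2, Clu, Gstm1 and Trabd2b. Klk1 (chr7:44225360-44229618) encodes tissue kallikrein, a serine protease that the connecting tubule releases into urine. It stood at 23.0, 20.6, 15.6, 16.6 and 15.4 CPM in Flcn KO libraries 1 to 5 and at 60.8, 69.3, 24.2, 41.2 and 50.0 CPM in the controls, so that control library 3 came close to the highest Flcn KO library. The fold change was -1.43 on the log2 scale (SE 0.23, adjusted p = 0.0032), or 2.70-fold lower. Leaving out controls 4 and 5, it was -1.51 (adjusted p = 0.0021) for Klk1. Klk1 belongs to a gene family with close copies, between which reads may be split.

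Pck1 (chr2:173153048-173159273), the cytosolic phosphoenolpyruvate carboxykinase that commits carbon to glucose synthesis and is made mainly in the proximal tubule of the kidney, stood at 101.8, 81.38, 58.41, 86.65 and 112.2 CPM against 148.6, 170.5, 149.2, 139.5 and 172.9 CPM in the controls. The groups did not overlap, and Pck1 fell by 0.83 on the log2 scale (SE 0.15, adjusted p = 0.0092). Without controls 4 and 5 the log2 fold change was -0.82 (adjusted p = 0.0082).

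Prss35, which encodes a secreted protein of the serine protease family that lacks the usual catalytic serine, stood at 1.47 to 2.66 CPM in the Flcn KO libraries and 6.22 to 12.4 CPM in the controls, a log2 fold change of -1.99 (SE 0.32, adjusted p = 0.0037). With controls 1 to 3 alone it was -2.20 (adjusted p = 0.0039). The level of Prss35 rested on a mean of 5.2 counts per Flcn KO library and 20.6 per control. Klk1, Prss35 and Pck1 were the genes called lower in each of the 10 fits that left out 1 library, with adjusted p at most 0.019, 0.020 and 0.045.

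The other 5 lost their call in at least 3 of these 10 fits. Mtus2, a microtubule-associated protein, stood at 4.67 ± 1.78 against 12.7 ± 3.40 CPM, with a log2 fold change of -1.44 (adjusted p = 0.030), and kept its call in 3. Clu, the secreted chaperone clusterin, stood at 167 ± 19.9 against 247 ± 23.8 CPM (-0.56, adjusted p = 0.032) and kept it in 1. Trabd2b, a membrane metalloprotease that cleaves Wnt proteins, stood at 38 ± 3.46 against 55.9 ± 6.11 CPM (-0.56, adjusted p = 0.049) and kept it in 1. Gstm1, a glutathione transferase with close copies in its cluster, stood at 65.9 ± 10.7 against 103 ± 15.4 CPM (-0.65, adjusted p = 0.033), its groups overlapped, and it kept its call in 2. Leaving out controls 4 and 5, the log2 fold change was -0.48 for Clu (adjusted p = 0.072) and -0.48 for Gstm1 (adjusted p = 0.17). It was -0.47 for Trabd2b (adjusted p = 0.22) and -1.56 for Mtus2 (adjusted p = 0.032).

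Ubb, a polyubiquitin gene with near-identical copies, had the largest decrease and the least even controls. It stood at 27.4, 21.4, 15.3, 29.3 and 40.8 CPM in the Flcn KO libraries, at 318, 358 and 372 CPM in control libraries 1, 4 and 5, and at 25.0 and 36.1 CPM in control libraries 2 and 3. The groups overlapped, with 3 controls far above all remaining libraries. The log2 fold change of -3.06 (SE 0.57, adjusted p = 0.015) became -2.23 (adjusted p = 0.043) without controls 4 and 5, and Ubb kept its call in 7 of the 10 fits that left out 1 library.

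**Figure D2:**
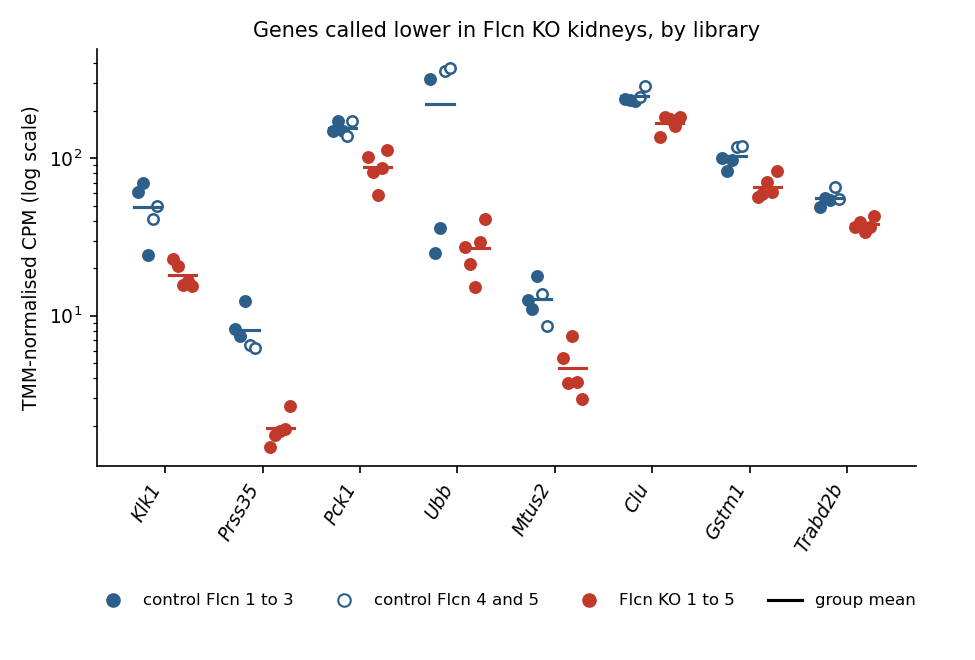
Each point is 1 library, with TMM-normalised CPM on a log axis for the 8 genes called lower; open circles are control libraries 4 and 5 and bars are group means. For Pck1 the Flcn KO libraries end at 112.2 CPM and the controls start at 139.5 CPM, whereas Ubb has 2 controls among the Flcn KO libraries.

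Further genes had all Flcn KO libraries below all controls but were not called. Of these, 73 averaged 20 counts or more per control library, and the 10 with the largest decrease among them were Hspa1b, Ptges, Hlf, Scd1, Arl14ep, Snai1, Tnfrsf19, Runx1t1, Lpin1 and Nectin1. Their log2 fold changes ran from -1.04 to -0.74 and their adjusted p from 0.072 to 0.33. Without controls 4 and 5 the log2 fold changes ran from -0.87 to -0.61 and the adjusted p from 0.18 to 0.69. In that fit Hlf was at -0.62 and Hspa1b at -0.85. Hlf, a transcription factor of the circadian output, stood at 13.1 ± 2.87 against 23.0 ± 4.38 CPM. Ptges, which makes prostaglandin E2, stood at 10.3 ± 3.91 against 19.2 ± 4.11 CPM, and Hspa1b, an inducible heat shock protein with a near-identical neighbour, at 5.02 ± 1.10 against 10.5 ± 1.84 CPM. Lpin1, a phosphatidate phosphatase of lipid synthesis, stood at 9.37 ± 0.417 against 15.9 ± 2.65 CPM, and Scd1, a fatty acid desaturase, at 7.28 ± 2.38 against 12.9 ± 2.99 CPM.

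The genes that rose with the smallest p were Gpnmb, S100a14, Aqp6, Atp12a, Slc16a7, Umod, Ckb, Ckmt1, Mlph, Atp6v0d2, Mfsd4a, Fstl3, Atp6v1g3, Nrip3, Dapl1, Ctsd, Egfl6, Plet1, Sostdc1 and Gpx6. All 20 had groups that did not overlap, kept their call in each of the 10 fits that left out 1 library, and were called without controls 4 and 5 (adjusted p at most 0.017).

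Gpnmb, a transmembrane glycoprotein of lysosomes and melanosomes, was nearly silent in the controls. It had 28, 35, 36, 25 and 23 counts in Flcn KO libraries 1 to 5 and 1, 0, 0, 1 and 2 counts in the controls. Over the pooled counts (147 against 4) this was a ratio of 37.7, with a 95% exact interval of 14.4 to 140 that covers counting error only. The fitted log2 fold change of 5.10 (SE 0.48, adjusted p = 2.8e-05) depends on the prior count. Mlph and Rab27a act together in moving melanosomes and other lysosome-related organelles along actin. Mlph stood at 11.8 ± 1.80 against 2.11 ± 1.04 CPM (adjusted p = 0.00056), and Rab27a at 17.2 ± 2.50 against 6.45 ± 3.09 CPM (adjusted p = 0.028), the latter keeping its call in 2 of the 10 fits that left out 1 library. For Rab27a the log2 fold change was 1.33, and 2.00 without controls 4 and 5 (adjusted p = 0.001).

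Called genes that encode channels or pumps included the following. Aqp6, an aquaporin in intracellular vesicles of intercalated cells, stood at 104, 82.5, 98.6, 110 and 69.5 CPM against 28.9, 32.4, 16.7, 11.5 and 23.1 CPM in the controls, a log2 fold change of 2.06 (SE 0.22, adjusted p = 7.5e-05). Every Flcn KO library was more than 2 times the highest control. Atp12a, the colonic-type proton-potassium pump, stood at 71.2 ± 12.8 against 26.2 ± 4.4 CPM (adjusted p = 8.2e-05). Rhcg, an ammonia channel, stood at 90.7 ± 9.42 against 55.1 ± 12 CPM (adjusted p = 0.022), and Scnn1b, a subunit of the epithelial sodium channel, at 76.2 ± 7.80 against 51.0 ± 7.93 CPM (adjusted p = 0.049). With controls 1 to 3 alone the log2 fold change of Rhcg went from 0.72 to 0.63 (adjusted p = 0.072). That of Scnn1b went from 0.58 to 0.51 (adjusted p = 0.17).

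Umod, which encodes uromodulin, the abundant urinary glycoprotein of the thick ascending limb, stood at 552, 401, 527, 522 and 441 CPM against 245, 257, 269, 206 and 245 CPM. The gene had a log2 fold change of 1.0 (SE 0.12, adjusted p = 0.0004). Ptger3, a prostaglandin E2 receptor of the same segment, stood at 17.6 ± 2.93 against 8.04 ± 1.04 CPM (adjusted p = 0.011). Its log2 fold change was 1.12, and 1.10 without controls 4 and 5 (adjusted p = 0.070).

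Ckb and Ckmt1, the cytosolic and mitochondrial creatine kinases, stood at 102 ± 10.5 against 52.6 ± 6.51 CPM and at 71.4 ± 12.7 against 29.7 ± 6.5 CPM (adjusted p = 0.0004 and 0.00056). Slc16a7, the monocarboxylate carrier MCT2, stood at 105, 75, 83, 111 and 79.3 CPM against 43.4, 35.1, 27.5, 35.2 and 41.2 CPM (log2 fold change 1.30, SE 0.15, adjusted p = 0.00015). Maoa, the outer-membrane monoamine oxidase, stood at 51.1 ± 7.31 against 25.1 ± 5.78 CPM (adjusted p = 0.0037).

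Sostdc1, an inhibitor of BMP and Wnt signals, stood at 596, 622, 590, 622 and 572 CPM against 352, 382, 401, 328 and 341 CPM, a log2 fold change of 0.74 (SE 0.11, adjusted p = 0.0015). Fstl3, which binds activin, stood at 79.5 ± 2.63 against 44.7 ± 4.91 CPM (adjusted p = 0.0007), and Gdf15, a stress-induced hormone, at 30.2 ± 3.88 against 13.1 ± 4.84 CPM (adjusted p = 0.012). The log2 fold change of Gdf15 was 1.26, and 0.92 without controls 4 and 5. Inmt and Slc20a1 were called higher although their groups overlapped, and kept their call in 5 and 3 of the 10 fits that left out 1 library. Without controls 4 and 5 the log2 fold change of Inmt went from 1.73 to 1.59 (adjusted p = 0.074). That of Slc20a1 went from 1.01 to 0.70 (adjusted p = 0.099).

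**Figure D3:**
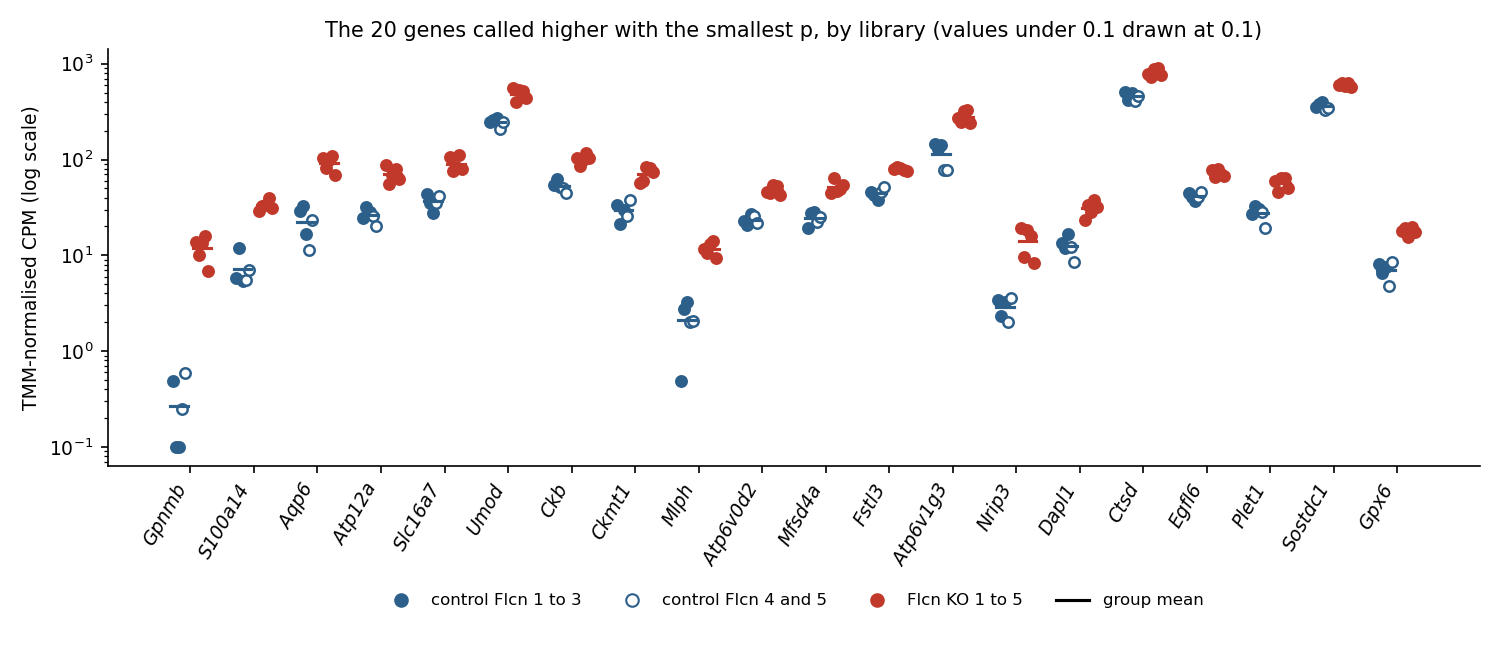
Each point is 1 library, with TMM-normalised CPM on a log axis for the 20 genes called higher with the smallest p; open circles are control libraries 4 and 5, bars are group means and values under 0.1 are drawn at 0.1. The Flcn KO libraries lie above every control for each gene, as for Umod, whose lowest Flcn KO library is at 401 CPM and highest control at 269 CPM.

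Gene lists were then read across all tested members, by counts and medians only. The lists were chosen with earlier results of these data known, which may itself have raised the shares of called or non-overlapping members. The shares are therefore descriptions of the members and not a test of enrichment. Counts of called members and of members without overlap in any list stand beside 0.453% called higher, 0.067% called lower, 1.67% without overlap higher and 0.712% lower over all genes tested, and a single member of a short list is already above these shares. Marker genes of intercalated cells, the acid- and base-secreting cells of the collecting duct, had the highest median of the 40 lists with tested members. That rank was lost without control Flcn library 2, where the red blood cell median was 0.65. The intercalated cell median was at most 0.56 over the alternatives. Of 16 intercalated cell genes tested, 4 were called higher (Aqp6, Atp6v1g3, Atp6v0d2 and Rhcg), beside 0.453% of all genes tested. All Flcn KO libraries lay above all controls for 7 of the 16, beside 1.67% of all genes tested. The median log2 fold change was 0.52 (0.47 without controls 4 and 5). Of the other members, Foxi1, the transcription factor that specifies these cells, was at 13.9 ± 2.16 against 7.49 ± 3.37 CPM (adjusted p = 0.33) without overlap. The members were not uniform. Atp6v1b1, the pump subunit typical of intercalated cells, had a log2 fold change of -0.02 (SE 0.14), Slc4a1, the anion exchanger AE1 of type A cells, 0.68 (SE 0.24, adjusted p = 0.37), and Slc26a4, the pendrin of type B cells, -0.22 (SE 0.25).

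Principal cells, their neighbours in the collecting duct, had a median of 0.09 over 12 tested genes (0.01 without controls 4 and 5), with Scnn1b called higher. That median had the other sign in 4 of 22 settings, down to -0.08. All Flcn KO libraries lay above all controls for Scnn1b and below them for Ptges (log2 fold change -0.87, not called). Each is 8.33% of the list, beside 1.67% higher and 0.712% lower of all genes tested. Aqp2, the vasopressin-regulated water channel, was at 207 ± 41.9 against 289 ± 32.2 CPM (log2 fold change -0.48, adjusted p = 0.20). In the thick ascending limb, 9 of 11 tested genes were above 0 with a median of 0.18. Umod and Ptger3 were called and were the 2 members without overlap (18.2%, beside 0.453% called higher and 1.67% without overlap among all genes tested). Without controls 4 and 5 that median was 0.03, and Slc12a1, the sodium-potassium-chloride carrier of this segment, had a log2 fold change of 0.18 with and -0.01 without them.

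The vacuolar proton pump, which acidifies lysosomes and, at the plasma membrane of intercalated cells, secretes acid into urine, had 23 tested subunits and accessory proteins. Their log2 fold change was above 0 for 20, with a median of 0.25 that was also 0.25 without controls 4 and 5. Called higher were Atp6v1g3 and Atp6v0d2, both subunits found in few tissues, and 7 members had all Flcn KO libraries above all controls (beside 0.453% and 1.67% of all genes tested). The intercalated cell list also holds Atp6v1g3, Atp6v0d2, Atp6v1c2, Atp6v1b1 and Atp6v0a4, so the results of these lists are not separate. Among these shared members, Atp6v1b1 had a log2 fold change of -0.02 and Atp6v0a4 of 0.15. Atp6v1g3 stood at 270, 245, 318, 331 and 239 CPM against 145, 130, 142, 77.8 and 77.3 CPM, with the lowest values in controls 4 and 5. Its log2 fold change was 1.31 (SE 0.18, adjusted p = 0.00086), and 1.01 without those 2 controls (adjusted p = 0.00024). Atp6v0d2 stood at 48.2 ± 5.29 against 23.6 ± 2.60 CPM (adjusted p = 0.00064). Atp6v1c2, Atp6v0b, Atp6v1f, Atp6ap1 and Atp6v0e also had Flcn KO libraries above all controls, with log2 fold changes from 0.40 to 0.74, and were not called. Averaged over its members, the list lay 0.31 to 0.38 (log2) above the control mean in the Flcn KO libraries and between -0.12 and 0.09 in the controls.

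Of the lysosomal hydrolases and their activators, 38 of 49 tested were above 0, with a median of 0.10 (0.03 without controls 4 and 5). Ctsd, the aspartic protease cathepsin D, was the called member. It stood at 775, 720, 886, 898 and 763 CPM against 504, 423, 491, 411 and 460 CPM, a log2 fold change of 0.82 (SE 0.12, adjusted p = 0.0015). Grn, Hexa, Asah1 and Aga also did not overlap between groups (with Ctsd 10.2% of the list, beside 1.67% of all genes tested) and were not called, and Grn, which encodes progranulin, stood at 483 ± 60.3 against 328 ± 51.1 CPM (adjusted p = 0.076). Ctsb, the cysteine protease cathepsin B, had a log2 fold change of 0.05 (SE 0.11). Of the lysosomal membrane and sorting proteins, 28 of 35 were above 0, with a median of 0.22 (0.12 without controls 4 and 5), no call, and 4 members without overlap (11.4%, beside 1.67% of all genes tested). These were Mcoln3, a lysosomal calcium channel, at 14.2 ± 1.77 against 7.09 ± 1.55 CPM (adjusted p = 0.056), with Ap1m2, Gga2 and Vamp8. Lamp1, the main lysosomal membrane glycoprotein, had a log2 fold change of 0.24 (SE 0.13, adjusted p = 0.61). Without controls 4 and 5 that of Lamp1 was 0.12 (adjusted p = 0.89).

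The Rag and mTORC1 list, which also holds Tfeb, Tfe3, Mitf and Flcn, had a median of 0.09 over 21 tested. Of these, 15 were above 0 and 6 below, with Mitf lowest at -0.42. Without controls 4 and 5 the median was 0.02, with 12 above 0 and 9 below. Rragd, which encodes the RagD that folliculin acts on, was the called member. It and Rheb, the GTPase that activates mTORC1, had all Flcn KO libraries above all controls (9.52%, beside 0.453% called higher and 1.67% without overlap among all genes tested), and Rheb had a log2 fold change of 0.32 (adjusted p = 0.38). Rragd stood at 54.3, 57.0, 56.9, 54.8 and 56.2 CPM, a range narrower than that of the controls at 32.8, 12.5, 24.2, 30.7 and 26.4 CPM. The log2 fold change was 1.13 (SE 0.18, adjusted p = 0.0032), and 1.28 without controls 4 and 5 (adjusted p = 0.0019). Among 32 autophagy genes, none was called and the median was 0.08 (0.10 without controls 4 and 5). Gabarapl1 and Optn, an autophagosome protein and an autophagy receptor, had groups that did not overlap (6.25% of the list, beside 1.67% of all genes tested), with log2 fold changes of 0.47 and 0.66 (adjusted p = 0.13 and 0.16), and Sqstm1, the receptor p62, had 0.08 (SE 0.10).

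Subunits of the respiratory chain encoded in the nucleus were above 0 for 44 of 47 tested, with a median of 0.23. Cycs, cytochrome c, was called, at 91.0 ± 10.5 against 58.4 ± 10.1 CPM (log2 fold change 0.65, adjusted p = 0.028), and 8 members (17% of the list, beside 1.67% of all genes tested) had all Flcn KO libraries above all controls. Without controls 4 and 5 the median was 0.14, with 40 of 47 above 0, and Cycs had a log2 fold change of 0.50 (adjusted p = 0.13). Subunits encoded in mitochondrial DNA were above 0 for 11 of 11, with a median of 0.21, but for 2 of 11 without controls 4 and 5, with a median of -0.18. Their summed level was 73600 to 119000 CPM in the Flcn KO libraries, 43400 and 45200 CPM in controls 4 and 5, and 106000 to 117000 CPM in the other controls. The PGC-1 and mitochondrial biogenesis list had 10 of 15 tested members above 0, none called and a median of 0.13, which was 0.16 without controls 4 and 5 and 0.01 with the controls of both crosses. Its members Esrrg and Ppargc1a, a nuclear receptor and a coactivator that drive mitochondrial genes, had groups that did not overlap (13.3% of the list, beside 1.67% of all genes tested), at 43.1 ± 3.49 against 28.9 ± 3.22 CPM (adjusted p = 0.051) and 122 ± 10.4 against 95.7 ± 8.75 CPM (adjusted p = 0.26).

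Markers of the proximal tubule mostly lay below 0. This is a segment outside the stated range of Ksp-cre. Of 32 tested genes, 26 were below 0 with a median of -0.19, none was called and no member had groups without overlap. At an unadjusted p under 0.05, 9 of the 32 were lower and 1 higher, beside 3.81% and 5.25% of all genes tested. Without controls 4 and 5 the median was -0.30 and 30 of 32 were below 0. Slc22a8 and Slc22a6, the organic anion transporters OAT3 and OAT1, stood at 104 against 148 CPM and at 105 against 145 CPM (adjusted p = 0.15 and 0.34), and Hnf4a, a transcription factor of this segment, at 50.5 against 70.2 CPM (adjusted p = 0.42). The organic solute carriers and xenobiotic enzymes, which share members with that list, were below 0 for 19 of 22 with a median of -0.18 (-0.26 without controls 4 and 5), and Gstm1 was called. The gluconeogenesis genes were below 0 for 10 of 11, with a median of -0.22 (-0.37 without controls 4 and 5), and Pck1 was called. Gpd1, the glycerol-3-phosphate dehydrogenase, stood at 70.1 against 101 CPM (adjusted p = 0.12), while G6pc, glucose-6-phosphatase, had a log2 fold change of -0.08 (SE 0.19), and -0.37 without controls 4 and 5.

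Medians for markers of the developing kidney depended on which controls were used. Nephron progenitor genes had a median of -0.38 over 12 tested, with 9 below 0. Without controls 4 and 5 the median was -0.04 over 11, with Six2 no longer tested. Six2, the factor that maintains these progenitors, stood at 2.97 against 5.82 CPM (adjusted p = 0.49). Its highest controls were libraries 4 and 5, at 9.98 and 6.81 CPM, against 3.38 to 4.62 CPM in controls 1 to 3. Ureteric tip genes had medians of -0.31 and -0.20 with and without those controls, and Ret, the receptor at the tip, had log2 fold changes of -0.85 and -0.21. Cell cycle genes were below 0 for 22 of 29 (median -0.14), and above 0 for 27 of 29 without controls 4 and 5 (median 0.15). Stroma kept a median of -0.23 (-0.19) over 14 genes, and collagens and matrix -0.15 (-0.07) over 25, of which 22 were below 0. Lama1, a laminin chain of the basement membrane, had groups that did not overlap (49.3 ± 10.4 against 68.5 ± 4.88 CPM, adjusted p = 0.22). In all, 10 of the 40 list medians changed sign without controls 4 and 5. The part that the differences in those 2 libraries play in the list medians was not tested.

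**Figure D4:**
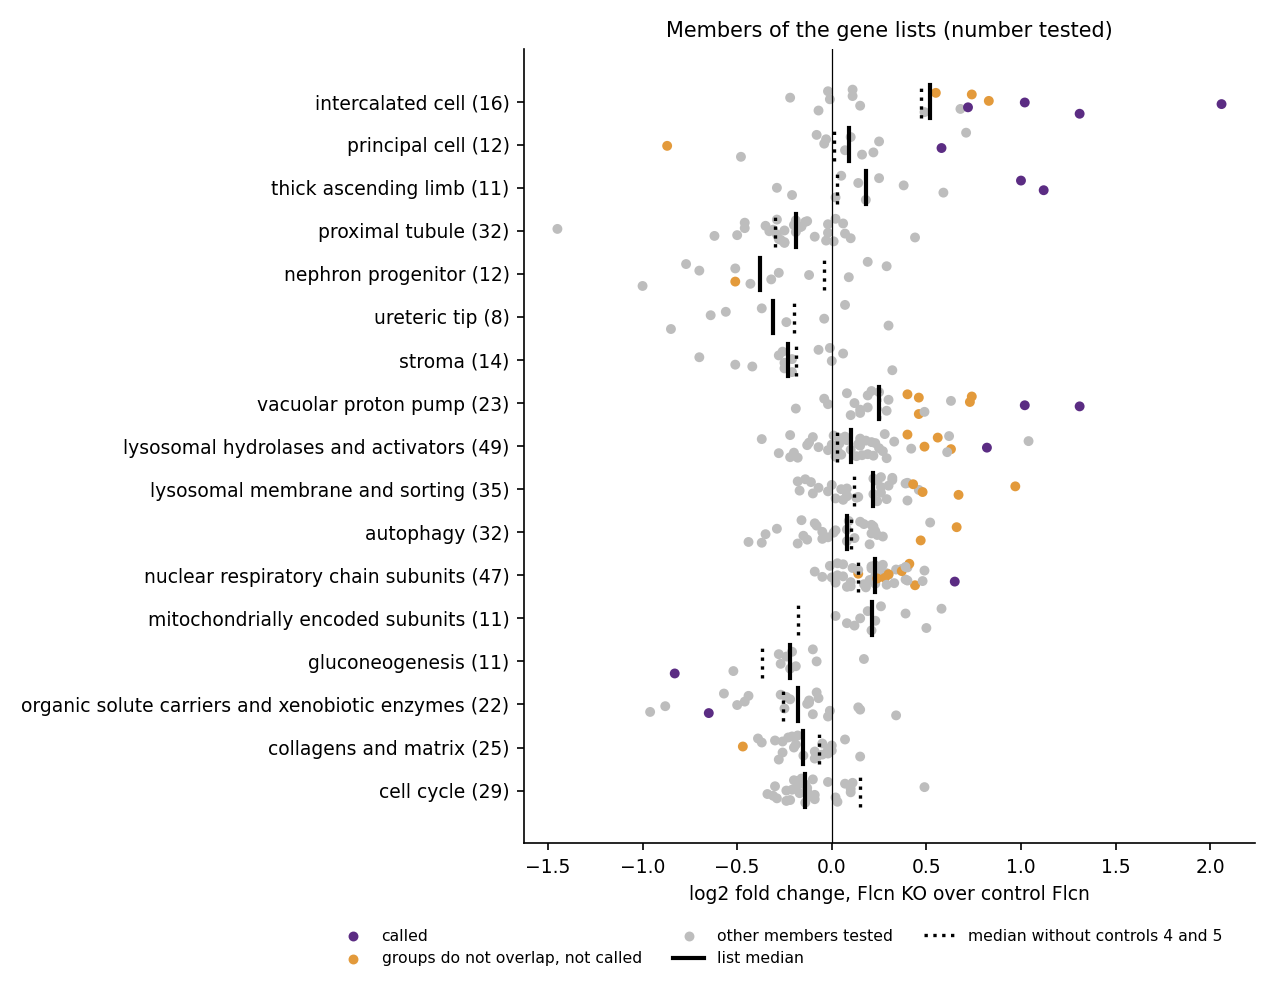
Each point is 1 tested member of 17 gene lists, placed by its log2 fold change of Flcn KO over control Flcn, with the number tested in brackets. Solid bars are medians and dotted bars medians without control libraries 4 and 5; the intercalated cell median moves from 0.52 to 0.47, and that of mitochondrially encoded subunits from 0.21 to -0.18.

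**Figure D5:**
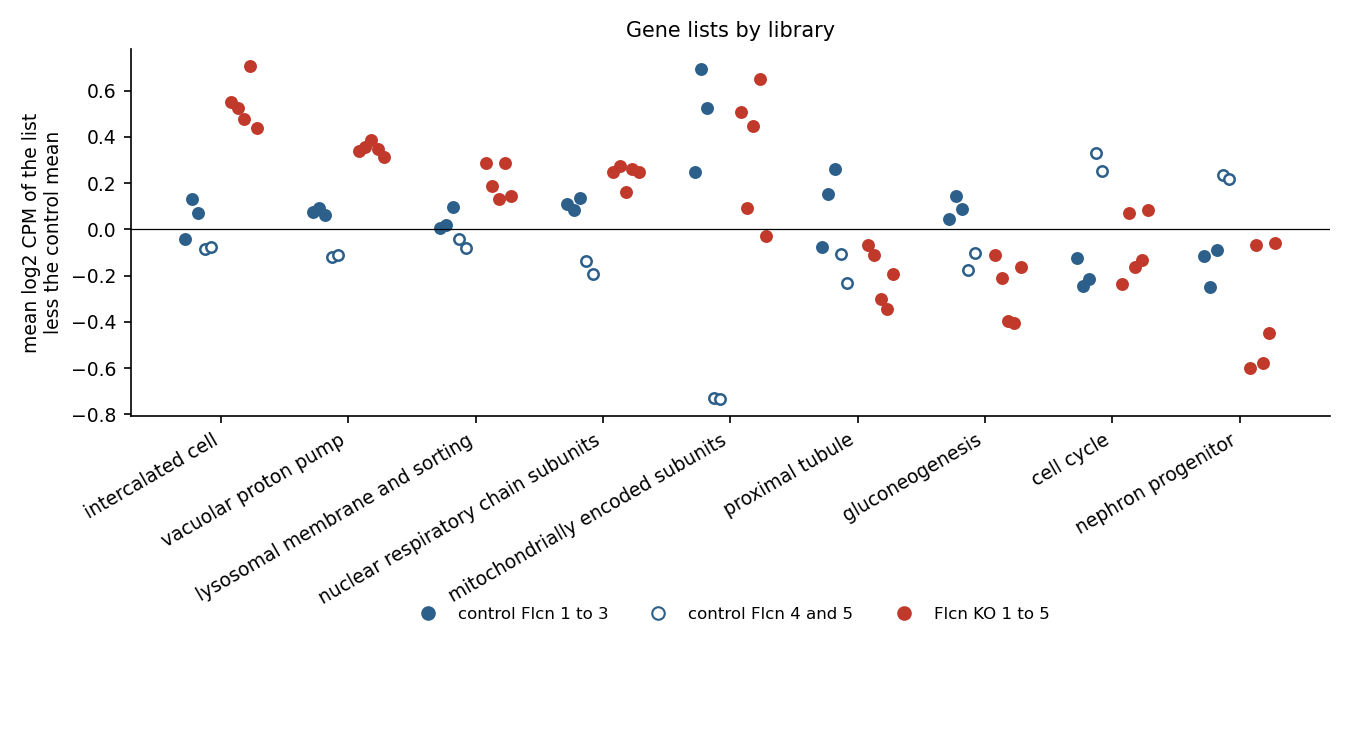
Each point is 1 library, giving the mean log2 CPM over the tested members of a list less the mean of the 5 controls; open circles are control libraries 4 and 5. The Flcn KO libraries lie above all controls for the intercalated cell list (0.44 to 0.71 against -0.08 to 0.13), while for mitochondrially encoded subunits controls 4 and 5 lie lowest.

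The other lists are given by their medians, each followed in brackets by the median without controls 4 and 5. In that fit fewer members were tested in 3 lists. These were injury and repair (19 of 20), FGF and GDNF targets (12 of 13) and Wnt, Hedgehog and BMP genes (25 of 26). Cystic kidney disease genes had a median of -0.06 (-0.16) over 24 tested, with Umod called. Muc1, a mucin altered in an inherited tubular kidney disease, was not called, at 37.9 ± 6.01 against 23.1 ± 3.91 CPM (adjusted p = 0.054). Injury and repair genes had a median of 0.00 (0.01) over 20 tested, with Gdf15 called higher and Clu lower. The median was -0.01 (0.05) for genes of ATF4 and endoplasmic reticulum stress, -0.06 (0.00) for NRF2 antioxidant genes, 0.03 (-0.01) for interferon and inflammation genes and 0.05 (0.11) for glycolysis and the hypoxia response, and among these 4 lists Gstm1 was the called member. In the Wnt, Hedgehog and BMP list, with a median of -0.06 (-0.07), Sostdc1 was called higher. Vangl2, a planar polarity protein, and Sufu, a Hedgehog inhibitor, had all Flcn KO libraries below all controls (7.69% of the list, beside 0.712% of all genes tested) with adjusted p of 0.074 and 0.22. Fatty acid oxidation genes had a median of 0.09 (0.11), sterol and fatty acid synthesis genes -0.07 (0.00) and heat shock genes -0.10 (-0.04), none with a called member. Immediate early genes had a median of -0.10 (0.06), FGF and GDNF targets -0.19 (0.11) and ribosomal proteins 0.06 (-0.12), also without a call. For other cell types, the median was -0.08 (-0.23) for the distal convoluted and connecting tubule, where Klk1 was called. Without a called member it was -0.12 (-0.19) for podocytes, 0.05 (0.08) for endothelium, 0.04 (-0.14) for myeloid cells, 0.37 (0.27) for red blood cells, 0.13 (-0.21) for urothelium, -0.25 (-0.54) for liver and -0.10 (-0.21) for fat. The summed red blood cell list ran from 3610 to 12100 CPM in the Flcn KO libraries and from 3540 to 8850 CPM in the controls.

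Of the genes tested, not called and higher without overlap, 99 averaged 20 counts or more per Flcn KO library and were outside the transcripts that the study lists as increased. The 10 with the largest increase were Hist1h1d, Foxi1, Dennd2d, Atp6v0b, Tifa, Scyl3, Krtcap3, Fbxo6, Bik and Zfp748, with log2 fold changes from 0.61 to 0.84 and adjusted p from 0.18 to 0.42. Atp6v0b, a proton pump subunit, was the most abundant of them at 604 ± 79.8 against 365 ± 131 CPM. In its controls, libraries 4 and 5 were lowest at 201 and 247 CPM, and its log2 fold change went from 0.73 to 0.40 without them, while that of Krtcap3 went from 0.65 to 0.41. Those of Foxi1, Fbxo6 and Hist1h1d were larger without these controls, at 1.24, 0.87 and 1.02, and those of the other 5 were 0.45 to 0.73, and none of the 10 was called in that fit. With the controls of both crosses the log2 fold change was 0.12 for Hist1h1d, 0.45 for Foxi1, 0.21 for Fbxo6, 0.38 for Bik and 0.36 for Zfp748.

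The promoters of the called genes were read for the E-box CACGTG and for TCACGTGA, the form of it in the CLEAR motif to which TFEB and TFE3 bind. Both motifs read the same on either strand, and TCACGTGA contains CACGTG. The windows are those of RefSeq on GRCm38.p6, from 250 bases before to 50 after each annotated start. Of the 54 genes called higher, 40 had a window, and 8 of these (20%) held CACGTG, against 11.8% of all tested genes with a window and 8.09% of all genes of the table. Of the 8 genes called lower, 6 had a window and none held it. TCACGTGA was in the window of 1 gene called higher, Ctsd (2.50% of 40), against 2.25% of tested genes and 1.12% of all genes of the table. These are descriptions of the letters in a short window, not of binding. The stretches below are from the 7 called genes with a motif before the start, shown to give the motif its surroundings, with the motif in capitals and each read 5′ to 3′ along the gene.
Ctsd, chr7:142387889-142387956, minus strand: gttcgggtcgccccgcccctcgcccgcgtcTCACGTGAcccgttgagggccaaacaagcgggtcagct
Mlph, chr1:90915022-90915087, plus strand: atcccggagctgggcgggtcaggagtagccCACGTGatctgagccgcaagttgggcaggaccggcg
Aqp6, chr15:99601141-99601199, plus strand: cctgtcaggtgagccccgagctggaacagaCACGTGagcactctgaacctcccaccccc
Gdf15, chr8:70632143-70632208, minus strand: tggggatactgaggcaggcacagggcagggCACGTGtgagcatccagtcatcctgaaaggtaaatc
Gpx6, chr13:21312052-21312117, plus strand: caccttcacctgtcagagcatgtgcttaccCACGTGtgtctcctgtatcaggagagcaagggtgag
Rab27a, chr9:73063898-73063937, plus strand: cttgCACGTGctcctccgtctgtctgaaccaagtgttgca
Slc20a1, chr2:129198568-129198633, plus strand: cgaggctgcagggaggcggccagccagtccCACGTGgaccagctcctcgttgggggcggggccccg

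The start of the capitals lies 99 bases before the annotated start in Ctsd, 48 in Mlph and 29 in Aqp6. Gpnmb, Umod, Klk1 and Pck1 had windows without either motif.

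The effect of Flcn loss was last set against that in kidneys that also lack Tfeb, each against the controls of its own cross. The difference between the 2 effects was called for 2 of 13049 genes tested (0.0153%), Slc16a7 and Sostdc1, and 776 passed an unadjusted p under 0.05. For Slc16a7 the log2 fold change was 1.30 in Flcn KO and -0.42 (SE 0.23) in Flcn/Tfeb DKO, a difference of 1.72 (SE 0.25, adjusted p = 0.009). For Sostdc1 it was 0.74 and -0.37 (SE 0.16), a difference of 1.11 (SE 0.17, adjusted p = 0.009). Neither gene was called without control Flcn libraries 4 and 5, with differences of 1.75 (adjusted p = 0.063) for Slc16a7 and 1.02 (adjusted p = 0.065) for Sostdc1. Without Flcn/Tfeb DKO library 4 the differences were 1.61 and 1.08, both with an adjusted p of 0.051, and without each of the other 16 libraries in turn both genes were called. Within the Flcn/Tfeb cross edgeR called none of 12469 genes, and 632 passed an unadjusted p under 0.05. Control library 3 of that cross also had a low mitochondrial share, at 4.47%. Leaving out this library together with control Flcn libraries 4 and 5, the difference was 1.6 (adjusted p = 0.074) for Slc16a7 and 0.94 (adjusted p = 0.026) for Sostdc1. Klk1 had a log2 fold change of -1.02 (SE 0.35) in the Flcn/Tfeb DKO and Pck1 -0.22 (SE 0.24), and the difference between the crosses was not called for either (-0.39 and -0.60, adjusted p = 0.92 and 0.82). These differences rest on few controls. That of Klk1 was -0.06 without control 2 of the Flcn/Tfeb cross, -0.97 without control 3 and -1.05 without the 3 libraries that stand apart in the 2 crosses, and that of Pck1 was -0.92 without control 3, none of them called. Whether Klk1 and Pck1 fall alike with and without Tfeb is not shown by these values.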

How the data were processed

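Kidney RNA was made into QuantSeq 3′ libraries and sequenced in single-end mode. Per the study's methods, the authors trimmed reads with bbduk (bbmap suite 37.31), aligned them with STAR to mm10 and obtained gene counts from HTSeq-count 0.9.1; the submitters' processing notes name Trim Galore for trimming. The deposited values are counts per gene, whole numbers without normalization, for 31053 gene IDs, of which 99.6% matched a GENCODE M21 symbol. Counts on no gene (9.06% to 18.1% of the reads in the 10 libraries) and reads aligned to several places were left out of library sizes and tests.

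Flcn KO was compared with control Flcn in edgeR 4.0.16 (R 4.3.3) with filterByExpr, TMM factors and the two-sided quasi-likelihood F test, Benjamini-Hochberg adjusted over all genes tested; calls were made at an adjusted p under 0.05. The difference between crosses was an interaction term over 17 libraries. Each SE was not taken from the model but was the absolute log2 fold change divided by the square root of the F statistic. No pair of libraries agreed within sampling noise (chi-square per degree of freedom 2.85 to 21.3 over 20 pairs). The script was tested on simulated data. The 41 gene lists were compiled by hand and described without a set test. The gene groups, lists and rules were chosen with earlier results of these data known. Named genes were the targets, all genes called lower and the 20 called higher with the smallest p. To these came the 10 largest changes each way among uncalled genes without overlap that averaged 20 counts or more in the higher group. The 10 increases were taken only from genes outside the transcripts that the study lists as increased. In each list, the called members and up to 4 others without overlap were also named. Further members are named with their values, and other called genes were chosen after their values were seen. DESeq2 1.42.0, limma 3.58.1, other factors, filters, covariates and left-out libraries were alternatives.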

Additional observations from a re-analysis of the deposited data

Results flagged for a closer look

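In 222 groups of 5 libraries tested for a library far from the others, 10 were found, fewer than the 1 in 20 that chance gives. The figure after each gene is the gap to the nearest library as a share of the group's range, to be read against a limit of 0.710. Among the controls these were Clu in library 5 (0.753, 288 CPM against 231 to 245), S100a14 in library 2 (0.741, 12 against 5.39 to 7.11), Gabarapl1 in library 2 (0.742, 137 against 185 to 202), Ifit3 in library 1 (0.76, 6.27 against 8.88 to 9.71), Atp6v1b1 in library 5 (0.775, 32.3 against 40.5 to 42.9) and Gpd1 in library 1 (0.789, 77.2 against 103 to 110). Among the Flcn KO libraries they were Dennd2d in library 1 (0.784, 14.7 against 10.2 to 11.2), Rhbg in library 4 (0.898, 82.8 against 61.9 to 64.0), Cox5b in library 3 (0.849, 361 against 420 to 431) and Esrrg in library 4 (0.778, 37.0 against 43.8 to 45.8).

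The effects in Flcn KO and Flcn/Tfeb DKO kidneys differed by the interaction test for Slc16a7 (difference 1.72, SE 0.25, adjusted p = 0.009) and Sostdc1 (difference 1.11, SE 0.17, adjusted p = 0.009). Every other named gene had an interaction adjusted p above 0.05. Without control Flcn libraries 4 and 5 neither difference was called (adjusted p = 0.063 and 0.065).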

How the results depend on the processing

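Main counts were 62 genes called, 54 higher and 8 lower. They were 113, 95 and 18 with DESeq2, 132, 104 and 28 with the likelihood ratio test, 147, 123 and 24 with the mitochondrial share as a covariate, and 100, 85 and 15 at an adjusted p under 0.1. Without a filter on low counts 95 were called and 18 were lower. They were also computed with the share of reads on no gene as a covariate (added once the data had been seen, as was the fit without controls 4 and 5), giving 155, 124 and 31. Lower calls numbered 3 with the controls of both crosses and 4 with all 17 libraries in the fit. Leaving out 1 library gave 37 to 58 called, 33 to 50 higher and 3 to 8 lower, fewest called without Flcn KO replicate 3, and 33 of the 62 were called in all 10 fits. For the 38 called genes that are named, 825 of 950 values over 25 alternatives kept their call and none changed sign. Replicate numbers are shared between the groups, but same-numbered libraries did not deviate together (correlations from -0.23 to 0.32). With a replicate block 48 genes were called, 42 higher and 6 lower, and the difference between crosses was called for 1 gene. That count ranged from 0 (without Flcn/Tfeb DKO replicate 4) to 3 (without any 1 control of that cross) in the fits leaving out 1 library, and was 0 without control Flcn replicates 4 and 5 and 1 without these and control Flcn/Tfeb replicate 3, fits also added later. Near 0, Tfe3 ran from -0.10 to 0.047 over the fits leaving out 1 library (highest without control Flcn replicate 2). Without controls 4 and 5 Tfe3 was -0.20. Cdh16 ran from -0.01 to 0.11 over the fits leaving out 1 library (lowest without Flcn KO replicate 1). It was -0.017 with the no-gene share and -0.051 without controls 4 and 5. Over the fits leaving out 1 library, Atp6v1b1 ran from -0.091 to 0.051, Ctsb from -0.0013 to 0.081 and G6pc from -0.23 to 0.049. Atp6v1b1 was 0.086 with the controls of both crosses and 0.0027 with the red blood cell share as a covariate, and Slc12a1 was -0.0061 without controls 4 and 5. With the block, the difference between crosses turned to 0.0085 for Flcn, 0.035 for Hlf, -0.015 for Gpd1 and -4.6e-05 for Lama1. At this depth a count of 0 allows up to 0.842 to 1.78 CPM in 1 library, for counting error only, so that genes as low as Gpnmb in the controls are measured to within a few counts.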
